A study of Mus musculus with 6 samples.

Results

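The metallothioneins and the carriers of zinc and copper are 10 mouse genes, given as a list of symbols: the metallothioneins Mt1, Mt2 and Mt3, the metal-sensing transcription factor Mtf1, the zinc exporter Slc30a1, the zinc importers Slc39a10 and Slc39a6, and the copper genes Slc31a1, Atox1 and Atp7a. All 10 were found by name among 17254 gene identifiers, and all 10 were among the 12813 genes with enough counts to test. RNA was sequenced from mouse neural stem and progenitor cultures kept in N2 medium to which EGF and bFGF had been added, to measure gene expression at different intracellular redox potentials. There were 2 libraries of cells given PQ, 2 of cells given NAC and 2 of control cells, with 48 h of treatment. The labels spell out neither abbreviation and state no dose, strain or age, nor whether the libraries of a group are separate cultures, so the p-values measure a spread between libraries that may be technical.

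Metallothioneins are small cysteine-rich proteins that bind zinc and copper and can release zinc when their thiols are oxidised. Free zinc activates MTF1, which binds metal response elements in the promoters of Mt1, Mt2 and Slc30a1 in the mouse, so transcript levels of these genes are often read as a reporter of zinc availability. Copper enters cells through the SLC31A1 transporter, is carried by the chaperone ATOX1 to the ATP7A pump, and is delivered there to secreted copper enzymes or exported. Mt3 is the metallothionein that is enriched in the brain.

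Summed expected counts (read counts estimated per gene) were 9680436 to 10388731 in the PQ libraries, 9907726 to 10698241 in the NAC libraries and 9849392 to 10040827 in the control libraries. Levels below are CPM, the counts relative to the total of the library after scaling with TMM factors, or FPKM (per length and depth) where different genes are set side by side. Of 10 neural stem cell markers, Sox2 stood at 295 to 413 CPM, Nes at 466 to 719 CPM and Vim at 2467 to 4871 CPM over the 6 libraries. Of these 10 markers 9 could be tested, and Hes5 had too few counts. The summed level of 5 endothelial markers was 81.3 to 123 CPM, nearly all of it Flt1, with Cldn5 taken as 0. The summed level of 5 microglia and blood markers was 5.46 to 11.0 CPM, that of 6 fibroblast and pericyte markers 1.97 to 7.03 CPM and that of 5 ependyma and choroid plexus markers 11.5 to 17.7 CPM, with Ttr and Folr1 of the last list taken as 0.

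The promoter windows of Mt1, Mt2 and Slc30a1 are shown because the metal response element links these genes to MTF1. That of Mt3 is shown beside them as the third metallothionein, without such a link being claimed. They are the 300 bases from 250 before to 50 after a start in RefSeq's GRCm38.p6 table, the assembly also called mm10, written 5′ to 3′ on the strand of the gene. Capitals mark metal response element cores, TGCACNC or TGCGCNC, on either strand, with overlapping matches counted once. The Mt1 start in that table lies 206 bases and the Slc30a1 start 84 bases downstream of the first base of the RefSeq gene. The Mt1 window is chr8:94178839-94179138, the Mt2 window chr8:94172368-94172667 and the Mt3 window chr8:94152357-94152656, all on the plus strand. The Slc30a1 window is chr1:191906531-191906830 on the plus strand.
Mt1: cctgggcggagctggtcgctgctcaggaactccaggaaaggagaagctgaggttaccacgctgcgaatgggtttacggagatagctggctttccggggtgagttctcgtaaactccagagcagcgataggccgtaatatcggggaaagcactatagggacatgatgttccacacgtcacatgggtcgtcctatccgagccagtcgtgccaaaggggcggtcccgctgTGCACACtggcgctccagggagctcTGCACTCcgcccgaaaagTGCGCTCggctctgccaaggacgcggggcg
Mt2: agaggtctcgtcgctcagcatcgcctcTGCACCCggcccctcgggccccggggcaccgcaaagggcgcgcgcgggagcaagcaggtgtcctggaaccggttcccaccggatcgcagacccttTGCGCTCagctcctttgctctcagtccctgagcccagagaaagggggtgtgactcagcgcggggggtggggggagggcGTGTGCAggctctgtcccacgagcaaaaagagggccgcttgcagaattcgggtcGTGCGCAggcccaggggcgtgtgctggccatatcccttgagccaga
Mt3: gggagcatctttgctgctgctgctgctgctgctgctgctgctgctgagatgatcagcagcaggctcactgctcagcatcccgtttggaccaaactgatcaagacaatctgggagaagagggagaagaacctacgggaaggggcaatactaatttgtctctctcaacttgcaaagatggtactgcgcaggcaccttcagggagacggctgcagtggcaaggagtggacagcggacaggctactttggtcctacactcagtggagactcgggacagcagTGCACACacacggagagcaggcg
Slc30a1: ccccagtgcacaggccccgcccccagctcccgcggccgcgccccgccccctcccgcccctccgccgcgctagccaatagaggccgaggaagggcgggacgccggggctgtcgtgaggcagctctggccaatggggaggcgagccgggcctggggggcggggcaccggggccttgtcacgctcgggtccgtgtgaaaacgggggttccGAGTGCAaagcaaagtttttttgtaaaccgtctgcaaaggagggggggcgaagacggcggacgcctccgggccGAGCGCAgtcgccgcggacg

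The Mt2 window held 4 metal response element cores, the Mt1 window 3, the Slc30a1 window 2 and the Mt3 window 1. Bases outside these windows were not searched, so the counts need not cover the whole promoter of a gene. Among all 32851 windows of the table, 0.295% held at least 4 cores, 1.31% at least 3, 6.14% at least 2 and 25.7% at least 1. Of the 9 members with a window in the table, 5 had a core: these 4 and Atp7a, with 2 cores. The windows of Mtf1, Slc39a10 (both of its starts), Slc31a1 and Atox1 held none, which says only that these letters are not in these windows. An antioxidant response element core, TGACNNNGC on either strand, stood in the windows of Mt2, Slc30a1 and Atox1, against 12.4% of all windows, and it overlapped no metal response element core there.

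**Figure D1:**
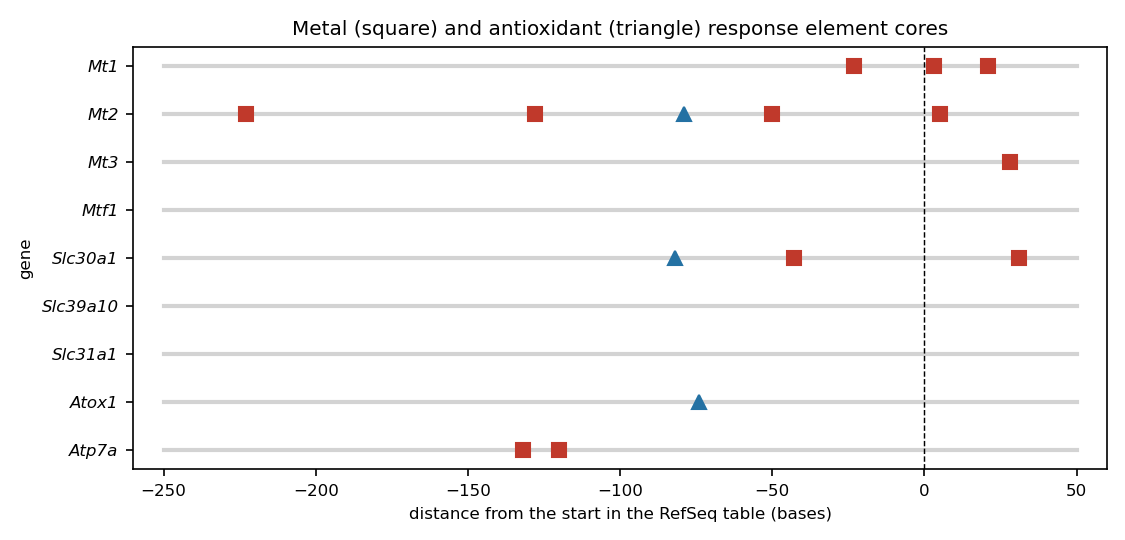
Positions of metal response element cores (red squares) and antioxidant response element cores (blue triangles) in the promoter windows of 9 genes, with the distance in bases from the start in the RefSeq table on the x axis. The 3 metal response element cores of Mt1 begin at positions -23, 3 and 21, and those of Mt2 at positions -223, -128, -50 and 5.

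Per length, the metallothioneins stood above the other members in every library, with Mt1 and Mt2 far above them and Mt3 closest to them with NAC, where Slc39a6 had 43.4 and 40.5 FPKM. Mt1 measured 1243 and 1136 FPKM in PQ cultures, 567 and 572 FPKM in NAC cultures and 1143 and 970.3 FPKM in control cultures. Its rank among all genes by FPKM was 19 and 23 with PQ, 87 and 95 with NAC, and 23 and 39 in control. Mt2 came next in every library, at 865 and 766 FPKM with PQ, 373 and 441 FPKM with NAC, and 789 and 745 FPKM in control. Mt3 followed at 189.9 and 222 FPKM with PQ, 71.2 and 71.5 FPKM with NAC, and 121 and 111 FPKM in control. The ranges of the 3 metallothioneins did not overlap within a group, so their order was the same in all 6 libraries.

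The other members formed a middle and a low tier by FPKM. In the middle tier were Slc39a6 (36.7 to 50.7 FPKM over all libraries), Slc31a1 (34.5 to 46.3), Atox1 (28.7 to 41.6) and Slc39a10 (21.0 to 35.1). In control cultures Slc31a1 (40.9 and 36.0 FPKM) and Slc39a6 (36.7 and 38.0 FPKM) overlapped, as did Slc31a1 and Slc39a10 with NAC (35.6 and 34.5 FPKM, and 35.1 and 32.6 FPKM). The low tier held Atp7a (4.85 to 9.55 FPKM), Mtf1 (5.59 to 7.36) and Slc30a1 (2.96 to 4.80). Atp7a lay above Mtf1 in both control and both PQ libraries and below it in both NAC libraries.

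**Figure D2:**
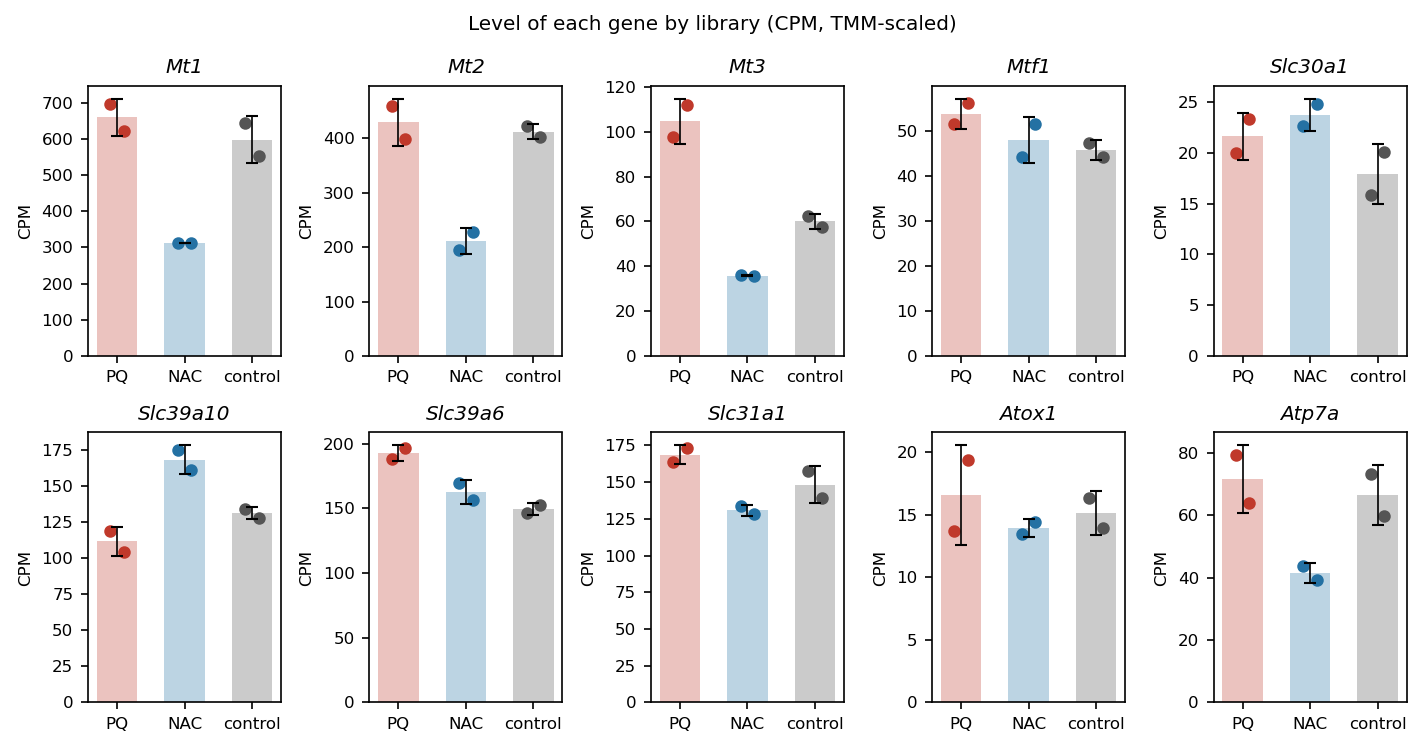
Level of each of the 10 genes in CPM (y axis, from 0) in PQ, NAC and control cultures. Points are the 2 libraries of a group, bars their mean and error bars the SD. Mt1, Mt2, Mt3 and Atp7a are lowest in both NAC libraries, and Slc39a10 is highest there.

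In NAC against control cultures, all 3 metallothioneins and the copper pump Atp7a fell, and the zinc importer Slc39a10 rose. A quasi-likelihood test of edgeR over all 12813 genes, with Benjamini-Hochberg adjustment and a threshold of 0.05, called 5 of the 10 members, against 17.9% of all genes tested. Of these, 4 fell, against 9.26% of all genes, and 1 rose, against 8.65%. The median log2 fold change was -0.15 over the 10 members and 0.00 over all genes tested.

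Mt1, a metallothionein found in most tissues, had 312 and 311 CPM in NAC cultures, against 644 and 551 CPM in control cultures. Mt2, its neighbour on chromosome 8 and the closest to it in pattern of all members, had 195 and 228 CPM with NAC, against 423 and 402 CPM in control. Both NAC libraries lay below both control libraries for either gene. Mt1 averaged 312 ± 0.679 CPM with NAC and 598 ± 65.4 CPM in control (SD, n = 2 each), a log2 fold change of -0.94 ± 0.10 (SE, edgeR adjusted p = 2.19e-06). Mt2 averaged 212 ± 23.3 CPM with NAC and 413 ± 14.3 CPM in control, a log2 fold change of -0.96 ± 0.10 (edgeR adjusted p = 2.58e-06). With their counts summed as a single feature, the log2 fold change was -0.95 ± 0.10 (edgeR adjusted p = 1.48e-06).

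Mt3, the brain-enriched metallothionein, had 36.0 and 35.7 CPM in NAC cultures, against 62.4 and 57.7 CPM in control cultures. The groups did not overlap, and the log2 fold change was -0.74 ± 0.11 (SE, edgeR adjusted p = 9.45e-05). The call of each of the 3 metallothioneins was kept under every alternative in which the gene was tested on its own, with adjusted p up to 0.0222 for Mt1, 0.021 for Mt2 and 0.0228 for Mt3. The longest run of bases shared between transcripts was 20 for Mt1 with Mt2, 27 for Mt1 with Mt3 and 20 for Mt2 with Mt3 (GENCODE M21), and 33 for Mt2 with the unrelated gene Pip5k1a. An antisense gene on the other strand, Gm45774, covers 73.5% of the exonic bases of Mt2, and strand use in the counting is not given in the sources used here. Whether the Mt2 counts include reads of Gm45774 is therefore not known.

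Among zinc transporters, Slc39a10, an importer of the plasma membrane, had 175 and 161 CPM in NAC cultures, against 134 and 128 CPM in control cultures. It rose 1.28-fold (log2 fold change 0.36 ± 0.10, edgeR adjusted p = 0.0155) with no overlap between the groups. That call was lost without NAC replicate 1 (adjusted p = 0.145) without control replicate 2 (0.0598) and with limma on log2(FPKM + 1) over all genes (0.0557), and its adjusted p ranged from 0.0055 to 0.145 over the alternatives. Slc30a1, the zinc exporter of the plasma membrane, had 22.6 and 24.9 CPM with NAC, against 15.9 and 20.1 CPM in control. The groups did not overlap, but its log2 fold change of 0.40 ± 0.15 did not pass (edgeR adjusted p = 0.0772), and it passed without control replicate 2 (0.59 ± 0.18, adjusted p = 0.0244, range 0.0244 to 0.364). Slc39a6, an importer closely related to Slc39a10, had a log2 fold change of 0.12 ± 0.09 (edgeR adjusted p = 0.415).

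Mtf1, the sensor itself, had 44.2 and 51.5 CPM with NAC and 47.2 and 44.2 CPM in control. These values overlapped, and the log2 fold change was 0.07 ± 0.11 (edgeR adjusted p = 0.746). Its transcript shares 8.1% of its exonic bases with 1110065P20Rik, and Slc30a1 shares 8.9% with 1700034H15Rik, both on the opposite strand.

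Among the copper genes, Atp7a, which pumps copper into the secretory pathway or out of the cell, had 43.8 and 39.2 CPM in NAC cultures, against 73.4 and 59.8 CPM in control cultures. It fell with a log2 fold change of -0.68 ± 0.13 (SE, edgeR adjusted p = 0.000904) and no overlap. That call was lost with limma on log2(FPKM + 1) over all genes (adjusted p = 0.0992, the highest of its alternatives, the lowest being 2.03e-07). Slc31a1, the high-affinity copper importer, had 133 and 128 CPM with NAC, against 157 and 139 CPM in control, and Atox1 had 13.4 and 14.5 CPM with NAC, against 16.4 and 13.9 CPM in control. Neither passed: the log2 fold changes were -0.18 ± 0.10 for Slc31a1 (edgeR adjusted p = 0.218) and -0.12 ± 0.18 for Atox1 (0.699). Atox1 rests on 132 to 204 expected counts per library, the fewest of the members along with Slc30a1, and its SE is the largest of the 10 in this comparison.

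Other markers moved with the NAC group. The summed level of 10 neural stem cell markers (all 10 listed above 0) was 4700 to 4793 CPM with NAC and 6408 to 6477 CPM in control, and Vim alone was 2467 and 2489 CPM with NAC, against 4306 and 4058 CPM in control. Without Vim the other 9 summed to 2326 and 2211 CPM with NAC and 2172 and 2350.1 CPM in control, which overlap, so the lower sum is that of Vim. Of the 9 markers that could be tested, Vim, Nes and Sox2 fell and Slc1a3 rose with NAC (edgeR). The sum of 5 astrocyte markers was 324 to 333 CPM with NAC and 407 to 423 CPM in control, although 2 of the 5 rose and 1 fell. That of 5 neuronal markers, of which Rbfox3 was taken as 0, was 319.7 to 360.2 CPM with NAC and 198 to 209 CPM in control, and of the 2 that could be tested Map2 rose and Tubb3 fell. The sum of 6 oligodendrocyte lineage markers was 1908 to 2132 CPM with NAC and 1583 to 1799.7 CPM in control. That of 5 microglia and blood markers was 9.21 to 11.0 CPM with NAC and 5.46 to 5.71 CPM in control. Of the 2 that could be tested P2ry12 rose (edgeR adjusted p = 0.00339, DESeq2 0.0164) and Cx3cr1 did not pass. In bulk RNA, fewer cells of a type and less RNA per cell cannot be told apart, and the part of these shifts in the metallothionein values was not tested.

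In PQ against control cultures, Mt3 and the zinc importer Slc39a6 rose and 0 members fell by edgeR or by DESeq2, with 1 lower at an unadjusted p under 0.05. These 2 calls stand against 9.07% of all genes higher, 8.8% lower and 17.9% called in either direction, so the share of members called is close to that of all genes. The control libraries are those used for NAC. The median log2 fold change of the 10 members was 0.16, against 0.00 for all genes tested.

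Mt3 had 97.5 and 112 CPM in PQ cultures, against 62.4 and 57.7 CPM in control cultures. Both PQ libraries lay above both control libraries. The level averaged 105 ± 10.1 CPM with PQ and 60.01 ± 3.32 CPM in control (SD, n = 2 each), 1.74-fold higher (log2 fold change 0.80 ± 0.10, edgeR adjusted p = 4.23e-05), and the call was kept in all 16 alternatives (adjusted p up to 0.0248). The sum of the 5 astrocyte markers was 493 to 537 CPM with PQ and 407 to 423 CPM in control. Of the 5, 2 were higher, Aldh1l1 and Gja1, and 0 lower by edgeR and by DESeq2, with 0 lower at an unadjusted p under 0.05. Gfap, Aqp4 and S100b did not pass (edgeR log2 fold changes -0.06, -0.16 and 0.64). Among the neural stem cell markers tested by edgeR, Nes rose and Sox2, Slc1a3 and Nr2e1 fell with PQ. Of the 2 neuronal markers tested Tubb3 fell, and Flt1, the endothelial marker that could be tested, rose, with a list sum of 106 to 123 CPM with PQ and 81.3 to 86.3 CPM in control. The 6 fibroblast and pericyte markers summed to 3.23 to 7.03 CPM with PQ and 1.97 to 2.73 CPM in control. Of the 3 tested, Dcn rose by edgeR (adjusted p = 0.031) but not by DESeq2 (0.111). The 5 microglia and blood markers summed to 8.08 to 8.53 CPM with PQ and 5.46 to 5.71 CPM in control, with 0 of 2 tested called. The part of these shifts in the Mt3 value was not tested.

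Mt1 and Mt2 gave other values. Mt1 had 695 and 623 CPM with PQ and 644 and 551 CPM in control, and Mt2 had 460.3 and 399 CPM with PQ and 423 and 402 CPM in control. The groups overlapped for both genes. The log2 fold changes were 0.14 ± 0.10 for Mt1 (SE, edgeR adjusted p = 0.352) and 0.06 ± 0.10 for Mt2 (0.742), and 0.11 ± 0.09 for their sum (0.48).

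Slc39a6 (chromosome 18, 24579881 to 24603817 in GRCm38.p6) had 188 and 197 CPM in PQ cultures, against 147 and 153 CPM in control cultures. It rose 1.29-fold (log2 fold change 0.36 ± 0.09, edgeR adjusted p = 0.0108), a call that was lost without PQ replicate 2 (adjusted p = 0.129, range over the alternatives 0.00446 to 0.129). Slc39a10 had 119 and 104 CPM with PQ, against 134 and 128 CPM in control, and its log2 fold change of -0.23 ± 0.10 did not pass (edgeR adjusted p = 0.119). The remaining members did not pass either, with log2 fold changes of 0.24 ± 0.11 for Mtf1 (51.4 and 56.1 CPM with PQ), 0.27 ± 0.15 for Slc30a1 (19.98 and 23.3 CPM), 0.18 ± 0.10 for Slc31a1 (164 and 173 CPM), 0.13 ± 0.17 for Atox1 (13.7 and 19.4 CPM) and 0.10 ± 0.12 for Atp7a (79.3 and 64.1 CPM), and edgeR adjusted p from 0.168 to 0.655.

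**Figure D3:**
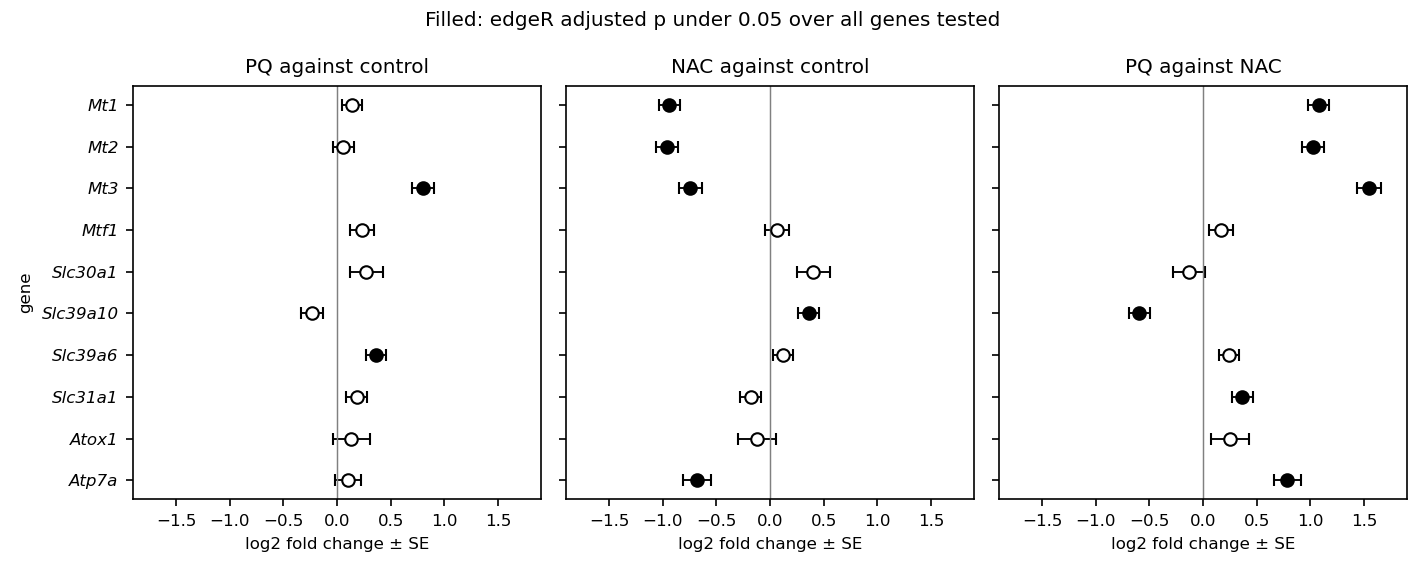
Log2 fold change of each gene with its SE (x axis) in the 3 comparisons, filled where the edgeR adjusted p is under 0.05. With NAC the 3 metallothioneins lie between -0.96 and -0.74, while with PQ only Mt3 and Slc39a6 of the 10 genes are filled.

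PQ against NAC compares the 2 agents directly. Higher with PQ were 5 members, Mt1, Mt2, Mt3, Slc31a1 and Atp7a, and 1, Slc39a10, was lower, so 6 of 10 were called. Of all genes tested, 30.6% were called, 15.5% higher and 15.1% lower. The median log2 fold change of the members was 0.31, against 0.00 over all genes tested. This comparison shares its libraries with the other comparisons, so its values repeat part of theirs.

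Mt3 had the largest difference among the members, with 105 ± 10.1 CPM in PQ cultures and 35.9 ± 0.155 CPM in NAC cultures (SD, n = 2 each), 2.92-fold (log2 fold change 1.55 ± 0.11, edgeR adjusted p = 1.38e-08). Mt1 was 2.11-fold and Mt2 2.03-fold higher with PQ than with NAC (log2 fold changes 1.08 ± 0.10 and 1.02 ± 0.10, edgeR adjusted p = 2.39e-07 and 7.15e-07). Both PQ libraries exceeded both NAC libraries for all 3 metallothioneins. Atp7a was 1.72-fold higher with PQ, at 71.7 ± 10.8 CPM against 41.5 ± 3.28 CPM with NAC (edgeR adjusted p = 0.000131).

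Slc31a1 had 164 and 173 CPM with PQ, against 133 and 128 CPM with NAC (1.29-fold, edgeR adjusted p = 0.00755). The groups did not overlap, but the call was lost without PQ replicate 2 (adjusted p = 0.0867), without NAC replicate 2 (0.0633), and with limma on log2(FPKM + 1) over all genes (0.0504), within a range of 0.00228 to 0.0867. Slc39a10 had 119 and 104 CPM with PQ, against 175 and 161 CPM with NAC, a log2 fold change of -0.59 ± 0.10 (edgeR adjusted p = 0.000178). The importers Slc39a10 and Slc39a6 gave opposite signs, though Slc39a6 did not pass (0.24 ± 0.09, edgeR adjusted p = 0.0547), with 188 and 197 CPM with PQ and 169 and 156 CPM with NAC. Slc30a1 (-0.13 ± 0.15), Mtf1 (0.17 ± 0.11) and Atox1 (0.25 ± 0.17) did not pass.

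Shares within the metallothionein pool do not depend on the scaling between libraries. Mt1, Mt2 and Mt3 together, without TMM scaling, had 1244 and 1148 CPM in PQ cultures, 548 and 586 in NAC cultures, and 1113 and 989 in control cultures. Mt3 made up 7.78% and 9.86% of that pool with PQ, 6.62% and 6.21% with NAC, and 5.52% and 5.70% in control. The pool was thus smallest in both NAC libraries, and the Mt3 share was largest in both PQ libraries and smallest in both control libraries. The ratio of Mt1 to Mt2 counts, 1.51 and 1.56 with PQ, 1.60 and 1.36 with NAC and 1.52 and 1.37 in control, overlapped between all groups. With 2 libraries against 2, an exact permutation test cannot reach the threshold, so no p is given for these shares.

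**Figure D4:**
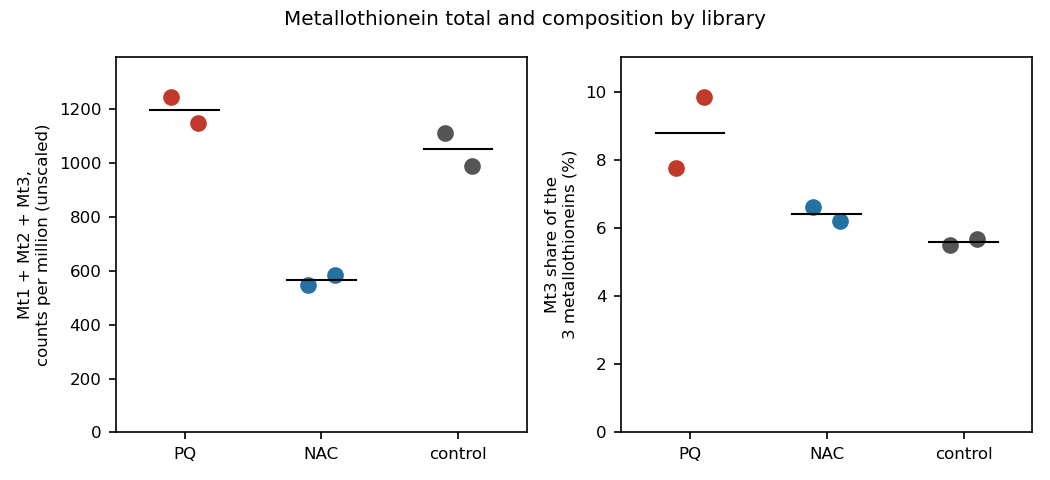
Left, the summed counts of Mt1, Mt2 and Mt3 in CPM without TMM scaling. Right, the share of Mt3 in that sum in percent. Points are libraries and lines group means for PQ, NAC and control. NAC libraries lie at 548 and 586, and the Mt3 share reaches 9.86% in a PQ library.

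The 3 metallothionein genes lie side by side on chromosome 8 of GRCm38.p6, Mt3 from 94152607 to 94154148, Mt2 from 94172618 to 94173567 and Mt1 from 94178883 to 94180327. Mt4, which lies next to Mt3, was not among the genes tested. The nearest protein-coding genes on either side that could be tested, chosen by position after the values of the members were known, were Bbs2, Ogfod1 and Nup93. Nup93, a nuclear pore subunit, fell by 0.39 on the log2 scale with NAC (edgeR adjusted p = 0.00892) and by 0.29 with PQ (0.0449). Bbs2 and Ogfod1 did not pass in any of the 3 comparisons, with log2 fold changes between -0.29 and 0.08. With NAC the 3 neighbours had log2 fold changes of -0.39 to -0.13, beside -0.96 to -0.74 for the metallothioneins, and the difference between them was not tested.

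The genes most alike in pattern were ranked by the root mean square difference of log2 CPM, each gene centred on its mean, over the 6 libraries and 10767 genes with a mean of at least 5 CPM. Me2 (0.06), Cd24a (0.06) and Slco5a1 (0.07) were closest to Mt1, Clmn (0.04), Sema3e (0.05) and Epha7 (0.05) to Mt2, and Hmga2-ps1 (0.09), Stard10 (0.09) and Efnb2 (0.10) to Mt3. Cd24a, a surface glycoprotein gene, had 307 and 302 CPM with PQ, 151 and 143 CPM with NAC and 292 and 274 CPM in control. Mt1 and Mt2 differed from each other by 0.09, so other genes followed either of them more closely than its paralog did. With 6 libraries in 3 groups this ranking describes these libraries only.

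The wider set of zinc and copper genes comprised 49 genes in 4 lists, of which 33 could be tested. Of all genes tested, 17.9% were called in each comparison with control, and 30.6% in PQ against NAC (15.5% higher). Of the other zinc exporters, 5 of 9 were tested. Slc30a4, which moves zinc into vesicles, fell with NAC, with 179 and 170.1 CPM, against 234 and 264 CPM in control (log2 fold change -0.51 ± 0.10, edgeR adjusted p = 0.000786). It was 1.70-fold higher with PQ than with NAC (edgeR adjusted p = 7.6e-06), and 0 exporters passed in PQ against control by edgeR or DESeq2, with 1 at an unadjusted p under 0.05. Of the other zinc importers 7 of 12 were tested, and 0 passed in PQ against control or NAC against control by edgeR or DESeq2. At an unadjusted p under 0.05, 0 passed in PQ against control by either tool, and 2 by edgeR and 1 by DESeq2 in NAC against control. With PQ against NAC 2 of them were higher, Slc39a7 (1.28-fold), which releases zinc from the endoplasmic reticulum and Golgi, and Slc39a11 (1.34-fold), with edgeR adjusted p of 0.0115 and 0.0354. DESeq2 called Slc39a7 alone. The Slc39a7 call was lost without PQ replicate 2 (adjusted p = 0.119), without NAC replicate 1 (0.143) and with limma on log2(FPKM + 1) over all genes (0.0822, range 0.00346 to 0.143). The Slc39a11 call was lost in 7 of 15 alternatives (range 0.0242 to 0.268). These were DESeq2 (0.112), limma on FPKM in each form (0.0531 to 0.103), and PQ replicate 1, PQ replicate 2 or NAC replicate 1 left out (0.0986, 0.167 and 0.268).

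Other copper handling genes were tested in 14 of 15 cases. Among those that passed were the metalloreductases of the STEAP family, which reduce iron and copper. Steap4 rose with both agents, to 85.7 and 103 CPM with PQ and 239.5 and 230.3 CPM with NAC, against 42.3 and 47.9 CPM in control. Its log2 fold changes against control were 1.06 ± 0.11 with PQ and 2.38 ± 0.11 with NAC (edgeR adjusted p = 5.7e-06 and 1.65e-10), and -1.32 ± 0.10 for PQ against NAC (6.31e-08).

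Steap3, a reductase of endosomes, had 49.0 and 64.7 CPM with PQ and 16.3 and 19.2 CPM with NAC, against 34.7 and 31.8 CPM in control. It rose with PQ (0.78 ± 0.14, edgeR adjusted p = 0.000675), fell with NAC (-0.91 ± 0.15, 0.000285) and was 3.21-fold higher with PQ than with NAC. Both calls against control were lost with limma on log2(FPKM + 1) over all genes (adjusted p = 0.0669 with PQ, range 4.62e-08 to 0.0669, and 0.0581 with NAC, range 3.98e-09 to 0.0581). Steap2 had 44.8 CPM with PQ and 41.3 CPM with NAC, against 57.3 CPM in control (means). It passed by edgeR with PQ (-0.35 ± 0.11, adjusted p = 0.0333), but this call was lost in 8 of 15 alternatives, among them DESeq2 (0.0875), either PQ library left out (0.109 and 0.215) and control replicate 2 left out (0.243), with a range of 0.0105 to 0.243. With NAC it fell (-0.47 ± 0.11, edgeR adjusted p = 0.00561), a call lost in 5 alternatives, among them control replicate 2 (0.0642) or NAC replicate 2 (0.0565) left out, with a range of 0.00115 to 0.148.

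Slc31a2, a relative of the copper importer, was 1.59-fold higher with PQ than in control (edgeR adjusted p = 0.0199). It did not pass with DESeq2 (0.108) or limma on log2(FPKM + 1) over all genes (0.0651), nor with control replicate 1 (0.104) or PQ replicate 2 left out (0.158, range 0.00731 to 0.158). Cox17, a chaperone that brings copper to mitochondria, was 1.31-fold higher with PQ than with NAC (edgeR adjusted p = 0.0468). The call was lost in 7 of 15 alternatives (range 0.0208 to 0.191). These were DESeq2 (0.139), no scaling (0.0568), limma on log2(FPKM + 1) over all genes (0.0606), and each of the 4 PQ and NAC libraries left out (0.117 to 0.191).

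Of the 14 copper handling genes, edgeR called 3 higher and 1 lower with PQ (9.07% and 8.8% of all genes), and DESeq2 called 2 higher and 0 lower, with 1 lower at an unadjusted p under 0.05. With NAC 1 was higher and 2 were lower (8.65% and 9.26% of all genes) by both tools. In PQ against NAC edgeR called 2 higher and 1 lower (15.5% and 15.1% of all genes), and DESeq2 1 and 1. The list medians were 0.08, -0.04 and 0.10 on the log2 scale, close to the 0.00 of all genes.

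Of the copper enzymes 7 of 13 were tested. Of all genes tested, 9.07% rose and 8.8% fell with PQ, and 8.65% rose and 9.26% fell with NAC. With PQ 4 rose and 0 fell, by edgeR and by DESeq2 and also at an unadjusted p under 0.05: Sod3, the extracellular superoxide dismutase (1.87-fold), the ferroxidase ceruloplasmin Cp (1.43-fold), the lysyl oxidase family member Loxl2 (1.37-fold) and the peptide amidating enzyme Pam (1.26-fold), with edgeR adjusted p from 0.000402 to 0.0146. Loxl2 lost its call in 5 of 15 alternatives (adjusted p range 0.000497 to 0.148). These were control replicate 2 (0.0713) or PQ replicate 1 (0.147) left out, and limma on FPKM in each form (0.0514, 0.0537 and 0.148). Pam lost its call without control replicate 2 (0.0596), PQ replicate 1 (0.0866) or PQ replicate 2 (0.114, range 0.00763 to 0.114). With NAC 1 rose, Cp, at 1337 and 1230 CPM, against 726 and 802 CPM in control (1.68-fold, edgeR adjusted p = 1.15e-05). Loxl2 and Pam fell with NAC (log2 fold changes -0.88 ± 0.13 and -0.51 ± 0.09, edgeR adjusted p = 6.56e-05 and 0.000595).

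Pam, which receives its copper in the secretory pathway, had 218.2 and 217.9 CPM with PQ, 124 and 119 CPM with NAC, and 175 and 171 CPM in control. Its groups did not overlap in any comparison, and it was 1.80-fold higher with PQ than with NAC (edgeR adjusted p = 1.7e-06), as were Loxl2 (2.52-fold, 3.34e-07) and Sod3 (1.39-fold, 0.0164). The Sod3 call was lost with DESeq2 (0.0698) and without PQ replicate 1, PQ replicate 2 or NAC replicate 1 (0.0535, 0.112 and 0.11, range 0.00947 to 0.112). The cytosolic copper and zinc enzyme Sod1 and its copper chaperone Ccs had log2 fold changes between -0.12 and 0.02 in the 3 comparisons and did not pass. Over the 4 lists, 8 of 33 genes were called in PQ against control, 7 in NAC against control and 9 in PQ against NAC. These shares, 24.2%, 21.2% and 27.3%, lie near the 17.9%, 17.9% and 30.6% of all genes tested. Without either PQ library the first count was 5, and the third was 5 without PQ replicate 2 and without NAC replicate 1.

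**Figure D5:**
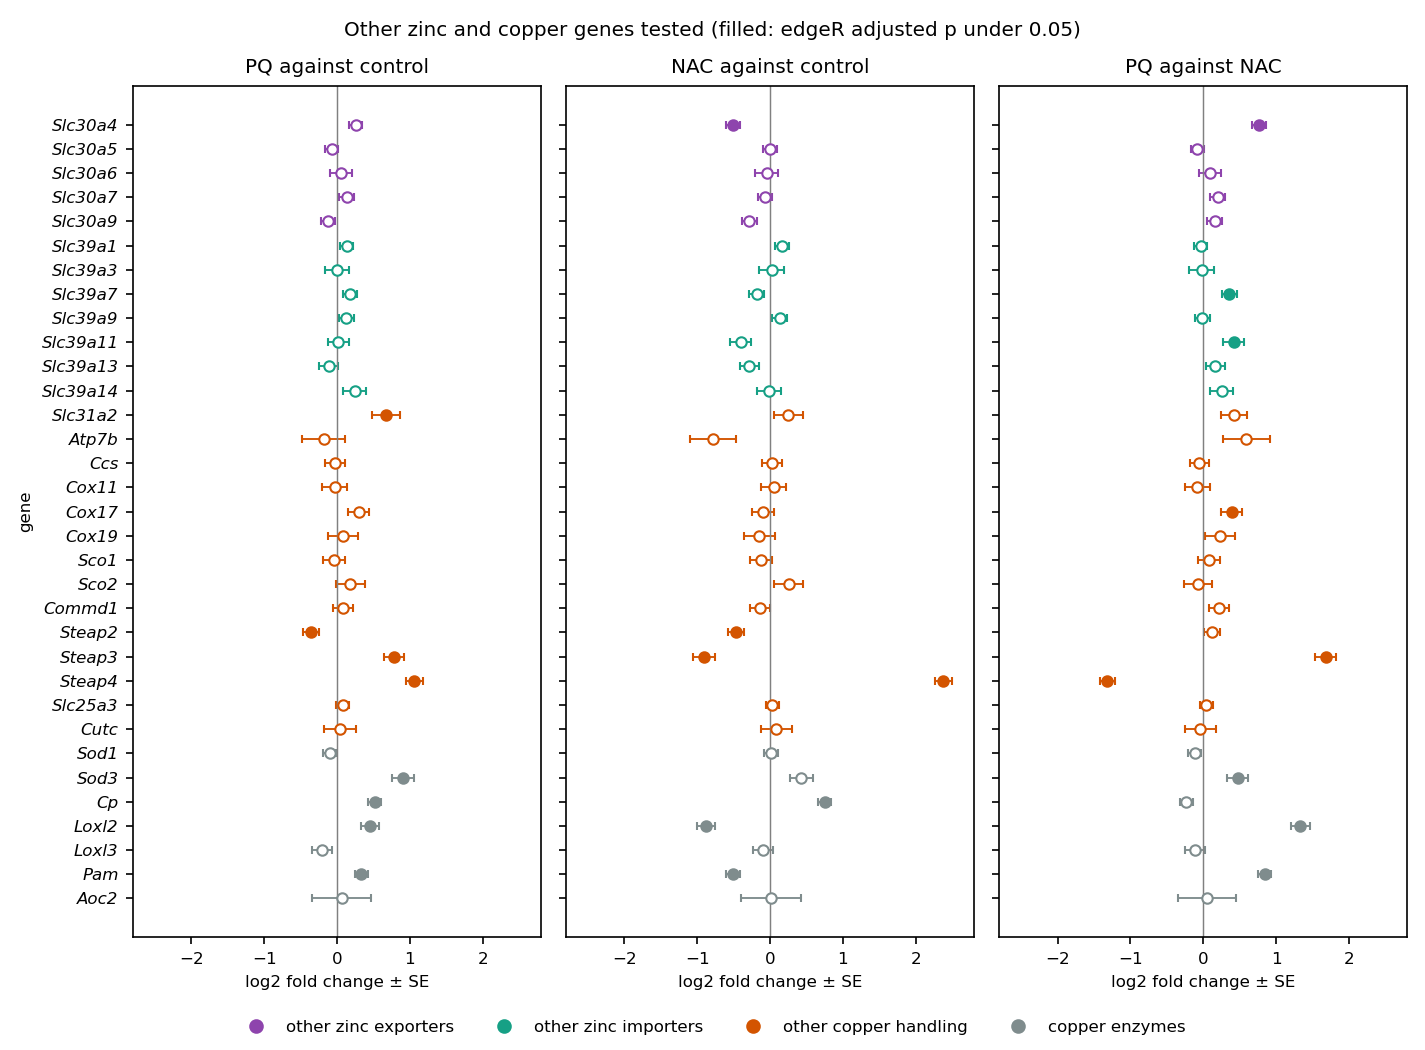
Log2 fold change with SE (x axis) of the 33 other zinc and copper genes that could be tested, coloured by list and filled where the edgeR adjusted p is under 0.05. Steap4 reaches 2.38 in NAC against control, and 0 of the 7 other zinc importers are filled in either comparison with control. Of all genes tested, 17.9% were called in each comparison with control.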

How the data were processed

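The deposited tables, 1 for each of 6 libraries, give expected counts and FPKM per gene, per the file headers. HISAT2 2.0.4, Bowtie2 2.2.5 and RSEM, with mm10, appear in the submitters' processing notes without roles. The deposited expected counts are estimates (20.9% to 21.4% of values are not whole). A gene without a line in a table was taken as 0. Names came from RefSeq's GRCm38.p6 gene table (17199 of 17254 identifiers), and identifiers without a name held 0.072% to 0.079% of a library's counts.

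Expected counts were rounded and tested with edgeR 4.0.16 (R 4.3.3, limma 3.58.1): filterByExpr (minimum count 10, minimum total 15), TMM, and quasi-likelihood models that give each of the 3 groups a mean, using all 6 libraries (3 residual degrees of freedom). Adjustment was Benjamini-Hochberg over 12813 genes with a threshold of 0.05. SEs were taken as |log2 fold change| over √F. The deposited FPKM were used for levels between genes and in alternatives, with limma on log2(FPKM + 1) or log2(FPKM + 0.1). Other alternatives were DESeq2 1.42.0, RLE or no scaling, no filter, a robust fit, only the groups compared, summing Mt1 and Mt2, and leaving out each library. The scripts were tested on simulated data for NAC against control. There edgeR called 61.19% of 67 genes changed 1.5-fold and 88.06% of 67 changed 2-fold, among 12741 tested, and 6.86% of its calls were false. In the data 17.9% of genes were called in that comparison, a larger share than was changed in the simulation, so these rates need not carry over.

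The result of 1 marker gene is not reported here. The members and lists were chosen with earlier results of these data known. All members are named, with the genes of each other list that passed (up to 4 in a direction) and the 3 genes nearest in pattern to each metallothionein. Plots used matplotlib 3.10.9 under Python 3.11.15, and tables pandas 2.3.3.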

Additional observations from a re-analysis of the deposited data

How the results depend on the processing

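Of 474 recalculated values of single members over all alternatives, 455 kept their direction and side of the threshold, 8 lost a call, 4 gained a call and 7 changed sign. The sign changed only for values that had not passed. For PQ against control, Atp7a had -0.034 without control replicate 2 and -0.056 without PQ replicate 1 (range over left-out libraries -0.056 to 0.257), Mt2 had -0.046 without PQ replicate 1 (-0.046 to 0.158) and Atox1 had -0.142 without PQ replicate 2 (-0.142 to 0.356). For NAC against control, Atox1 had 0.005 without control replicate 1 (-0.227 to 0.005) and Mtf1 had -0.045 without NAC replicate 2 (-0.045 to 0.173). For PQ against NAC, Atox1 had -0.022 without PQ replicate 2 (-0.022 to 0.472). For the 24 calls of the wider lists, 48 of 360 recalculated values lost the call and 0 changed sign, and 13 calls were kept throughout. Slc39a6 in PQ against NAC passed with only those groups fitted (edgeR adjusted p = 0.0385, range 0.0385 to 0.3). It also passed without control replicate 1 (0.0443) and without control replicate 2 (0.0442).

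With limma on log2(FPKM + 1) and all genes above 0, which tests more genes, Slc39a10 (adjusted p = 0.0557) and Atp7a (0.0992) lost their calls in NAC against control, where 0 members were higher, and Slc31a1 (0.0504) in PQ against NAC. That setting called 702, 972 and 2514 of all genes, in the order PQ or NAC against control and then PQ against NAC, and 4 of the wider lists in PQ against control. Leaving out 1 library, the members higher numbered 1 to 2, 0 to 1 and 4 to 6 in the 3 comparisons, and the wider lists had 5 to 8, 6 to 8 and 5 to 10 calls. The counts over all genes were 829 to 2181, 1338 to 2157 and 2427 to 4442. With only the nearer part of the window before the start searched, the metal response element cores numbered 1 for Mt1, 1 for Mt2, 0 for Mt3 and 1 for Slc30a1. No paired analysis was run. The titles number the libraries 8 and 11 (control), 9 and 12 (PQ) and 10 and 13 (NAC), and no label says whether these numbers form sets. A difference between such sets was not tested. The depth gives the least precision for Atox1 and Slc30a1.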
